A study of Mus musculus with 44 samples.

Results

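Fos, Fosb, Fosl2, Jun, Junb, Jund, Atf3, Egr1, Egr2 and Ier2 are grouped here as immediate early AP-1 and Egr genes. They were followed as 10 of the 46831 genes counted in the skeletal stem cell lineage. The members were found by gene symbol and no measured value entered that rule, but the group was chosen with earlier results of these data known. All 10 passed the filter on low counts in every comparison. The libraries came from long bones of mice at postnatal day 3, strain C57Bl6 per the labels, with no treatment. The 16 WT input libraries held 2 replicates of each of 8 sorted populations: skeletal stem cells (SSC), the progenitors pBCSP (labelled pre-BCSP) and BCSP, and the downstream populations PCP, THY, BLSP, 6C3 and HEC. Each input library (mRNA) had a matching immunoprecipitation (IP) library made with an antibody to N6-methyladenosine (m6A), the SLIM-seq assay for very small amounts of RNA, which gave 32 WT libraries.

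Another 12 libraries, 6 input and 6 IP, were labelled Mettl3cko and covered SSC, pBCSP and BCSP. Mettl3 is the catalytic subunit of the m6A methyltransferase. In the study's methods the deleted animals are Mettl3 fl/fl;Col2a1-Cre and the WT controls are Mettl3 fl/fl littermates without Cre, so both carry the floxed alleles, and Cre acts in cells that express Col2a1 or descend from them. Their titles give them as Mettl3cko while their genotype field says wild type, so the assignment rests on the titles. How many animals were pooled for a library is not given in the sources used here.

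Mettl3 itself was counted at 11.9 to 19.9 CPM (counts scaled to a common library total) in the 6 WT libraries of these populations and at 16.4 to 22.8 CPM in the 6 libraries labelled Mettl3cko, and the ranges overlapped. The log2 difference was 0.25 (SE 0.17; edgeR quasi-likelihood test, Benjamini-Hochberg adjusted p = 0.434). The gene-level count therefore does not check the deletion. Reads from exons outside a deleted part would still be counted. Mettl3 also overlaps Tox4 on the opposite strand, in libraries that do not mark strand. Whether either kept the count up was not tested. The study itself reports the deletion by qRT-PCR and Western blot, and a lower m6A level in stem and progenitor cells by dot blot. It also reports lower m6A levels in SSC, pBCSP and BCSP after Mettl3 loss in its m6A profiles. The comparisons below are given as labelled Mettl3cko against WT.

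Input libraries held 19795666 to 44046651 counts and IP libraries 16480027 to 35856651. Replicates of a condition differed by more than counting noise, with 25.9 or more chi-square units for every degree of freedom in all 22 conditions, so none was taken as a library deposited again. This does not show that they came from separate animals. The 10 genes held 1.64% to 2.28% of the counts of a WT SSC, pBCSP or BCSP input library, 1.16% to 1.67% of a library labelled Mettl3cko and 0.693% to 1.43% of a downstream library. Summed chondrocyte markers (6 genes, Col2a1 among them) stood at 88343 to 103765 CPM in WT SSC, pBCSP and BCSP and at 55319 to 109934 CPM in the libraries labelled Mettl3cko. Downstream libraries spanned 7816 to 99015 CPM for these markers and 66658 to 141948 CPM for 6 osteoblast markers, against 5434 to 11158 CPM in the WT SSC, pBCSP and BCSP libraries. Summed leukocyte markers (8 genes) stood at 3.55 to 11.5 CPM in WT SSC, pBCSP and BCSP, 1.96 to 25.9 CPM in the libraries labelled Mettl3cko and 3.14 to 20.5 CPM downstream. In WT SSC, pBCSP and BCSP, Ptprc was at 0 while Lyz2 had means of 3.40, 5.66 and 5.57 CPM. Summed muscle markers reached 11.0 CPM and endothelial markers 120 CPM at most, stroma markers were at 86.7 to 231 CPM in SSC, pBCSP and BCSP of both genotypes and at 305 to 2618 CPM downstream, and the 5 sorting antigens summed to 69.1 to 442 CPM in all input libraries.

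Immediate early genes are typically transcribed within minutes of a growth factor, mechanical or stress signal, without new protein synthesis, and their mRNAs are short-lived. Not every member of the group need behave so, since Jund is usually found in resting cells. Fos and Jun proteins pair through leucine zippers into AP-1, which binds the sequence TGANTCA, and Egr proteins are zinc-finger factors. AP-1 takes part in bone formation and in chondrocyte and osteoclast differentiation. The same genes respond to enzymatic tissue release and cell sorting, and these cells were released with collagenase at body temperature with shaking and sorted by flow cytometry into TRIzol. No sample in the series was taken without that procedure.

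Where m6A forms, it most often lies in a short consensus of which GGACT, written here in DNA letters, is the commonest form. The sequences of 3 of the genes are shown because they carry the contrast described below between a transcript enriched by the antibody (Jund) and transcripts depleted by it (Junb and Ier2). Every GGACT of their longest coding transcript is given with up to 8 bases on each side (GRCm38, annotation GENCODE vM21). GGACT is in capitals and each line reads 5′ to 3′ on the gene's strand, which is plus for Jund and minus for Junb and Ier2.
Jund 5′UTR, chr8:70698966-70698986: cgggcagcGGACTggggggca
Jund 3′UTR, chr8:70700099-70700119: gcatgcgcGGACTagctgcgg
Jund 3′UTR, chr8:70700126-70700146: ggcgccccGGACTctttcgag
Jund 3′UTR, chr8:70700152-70700172: gtgcccccGGACTcgacaagc
Junb 5′UTR, chr8:84978704-84978718: ggGGACTttgagggt
Junb coding sequence, chr8:84977819-84977839: cgccgtcgGGACTgggagctc
Junb 3′UTR, chr8:84977261-84977281: cacacactGGACTccggcccg
Ier2 coding sequence, chr8:84662340-84662360: gtgatgccGGACTggtaccaa
Ier2 3′UTR, chr8:84661955-84661975: caggggaaGGACTgaggagcg
Ier2 3′UTR, chr8:84661893-84661913: ctattaaaGGACTgtcccttc
Ier2 3′UTR, chr8:84661654-84661674: cgccctagGGACTgggaagtg
Ier2 3′UTR, chr8:84661548-84661568: agaccccgGGACTggtcaacc

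The letters alone did not separate enriched from depleted transcripts. Jund, enriched in the IP, held 4 GGACT or 2.40 per kb, while Ier2, depleted in the IP, held 5 or 3.29 per kb, the 98.2 percentile of 21877 annotated genes whose median is 1.01 per kb. Junb held 3, or 1.66 per kb. Jund was unlike most transcripts in base composition, with 67.1% G and C, the 99.7 percentile around a median of 49.1%, while Junb had 62.6% and Ier2 60.9%.

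ATTTA in a 3′UTR is the core of AU-rich elements, which are known for fast mRNA decay. The Fos 3′UTR held 4.91 ATTTA per kb (the 92.0 percentile) and that of Junb 4.12, whereas the Ier2 3′UTR held 0. The densest stretch of Fos lies at chr12:85477092-85477119 on the plus strand, with the overlapping ATTTA copies in capitals.
Fos 3′UTR: cgtttttattgtgttttcaATTTATTTA

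Promoters of 8 of the 10 genes were found in the RefSeq promoter table (GRCm38.p6, 250 bases before to 50 after each start site). The pair of genes with the highest mRNA levels per length in WT SSC, pBCSP and BCSP is shown, Fos at chr12:85473640-85473939 on the plus strand and Junb at chr8:84978699-84978998 on the minus strand, with TATAAA in capitals.
Fos promoter: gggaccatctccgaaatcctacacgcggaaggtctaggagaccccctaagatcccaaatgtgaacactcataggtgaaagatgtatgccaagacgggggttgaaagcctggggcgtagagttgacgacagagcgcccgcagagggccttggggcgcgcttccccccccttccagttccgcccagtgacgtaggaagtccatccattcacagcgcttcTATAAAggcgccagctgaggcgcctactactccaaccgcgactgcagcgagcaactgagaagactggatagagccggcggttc
Junb promoter: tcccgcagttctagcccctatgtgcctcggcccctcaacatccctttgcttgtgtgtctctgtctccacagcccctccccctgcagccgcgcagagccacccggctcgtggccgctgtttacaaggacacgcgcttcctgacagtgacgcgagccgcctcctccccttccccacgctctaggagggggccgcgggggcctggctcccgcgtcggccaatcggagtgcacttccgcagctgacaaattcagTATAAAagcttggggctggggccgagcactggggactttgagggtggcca

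TATAAA began 33 bases before the listed start site of Fos and at base 1 of the listed start of Junb, and 13.6% of all 32851 promoters in the table hold it on either strand. The Fosb promoter held TGACGCAA, a relative of the cAMP response element, starting 60 bases before its start site, against 0.490% of all promoters. A CArG box, the site bound by serum response factor, was found before 4 of the 5 listed start sites of Egr2 and in 1.63% of all promoters. The Egr2 windows that begin at 67537619, 67537620 and 67537680 overlap and hold the same CCATATATGG. The window that begins at 67537316 holds CCTTTTTTGG. These are matches of letters and say nothing of binding.

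The first comparison asks how the mRNA of each gene is distributed over the 8 WT populations. Of the 10 genes, 6 differed among populations by the F test across all populations (edgeR, adjusted p under 0.05), where 40.1% of all 20060 tested genes were called. These were Fos (adjusted p = 4.15e-07), Jun (0.000353), Junb (0.00044), Ier2 (0.000797), Egr1 (0.00144) and Jund (0.00199). When SSC, pBCSP and BCSP together were set against the 5 downstream populations, 7 of the 10 were called, with 6 higher and Jund lower. Among all tested genes 51.4% were called, 23.1% higher and 28.3% lower. The median log2 difference was 0.86 over the 10 genes and -0.11 over all tested genes. In bulk RNA, fewer cells that express a gene and less RNA per cell cannot be told apart.

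**Figure D1:**
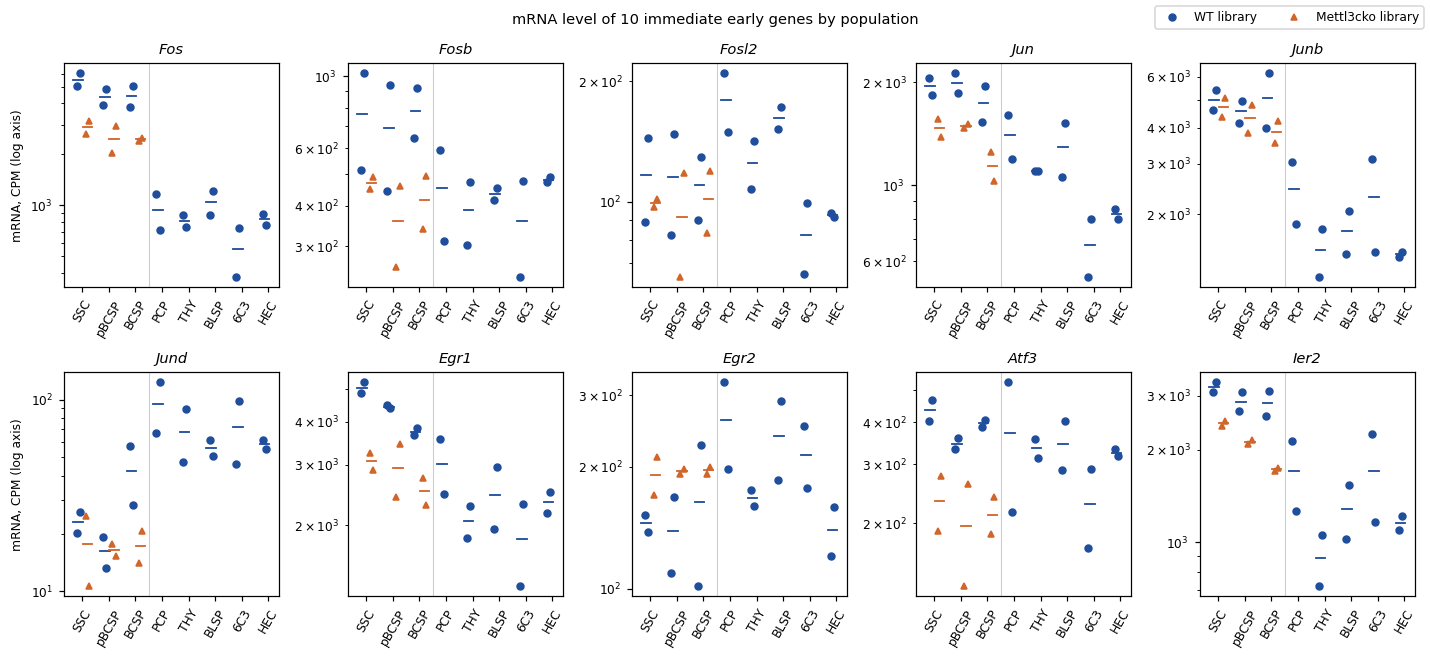
Input mRNA level (CPM, log axis) of each of the 10 genes in every library, by population, with WT libraries as circles, libraries labelled Mettl3cko as triangles and the mean of each pair as a bar. The vertical line separates SSC, pBCSP and BCSP from the downstream populations, and WT Fos lies at 3814 CPM or more to its left and at 1210 CPM or less to its right.

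Fos, the founding Fos-family partner of AP-1, lies on chromosome 12 at 85473890-85477273 (plus strand, GRCm38). Its level was 5044 and 6032 CPM in SSC, 3900 and 4847 CPM in pBCSP, and 3814 and 5095 CPM in BCSP. The downstream libraries held 377 CPM at the lowest, 818 CPM at the median and 1210 CPM at the highest. No downstream library reached the lowest of the 6 stem and progenitor libraries. The difference was 2.55 on the log2 scale (SE 0.15, 5.84-fold; adjusted p = 2.38e-09). Fos differed in 15 of the 15 pairwise contrasts between one of SSC, pBCSP and BCSP and one downstream population, where 25.2% of all gene tests of that kind were called.

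Fosb, which forms AP-1 dimers like Fos, ranged from 444 to 1020 CPM with a median of 783 in the 6 WT stem and progenitor libraries. Downstream it ranged from 241 to 592 CPM with a median of 462, so the groups overlapped. Its log2 difference was 0.83 (SE 0.21, 1.78-fold; adjusted p = 0.00357), and none of its 28 pairwise contrasts was called. Fosl2, a Fos-related partner without the strong activation domain of Fos, was at 82.4 to 148 CPM in the stem and progenitor libraries and at 66.0 to 209 CPM downstream. Its log2 difference was -0.11 (SE 0.16; adjusted p = 0.627), and 1 of its 28 pairwise contrasts was called, PCP over 6C3 at 1.12.

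Jun, the main transactivating Jun protein, lies on chromosome 4 at 95049034-95052222 (minus strand). It stood at 1527 to 2124 CPM, median 1907, in the stem and progenitor libraries and at 541 to 1607 CPM, median 1080, downstream. The ranges overlapped only through PCP replicate 1, the highest downstream library. The log2 difference was 0.89 (SE 0.12, 1.86-fold; adjusted p = 1.24e-05). Jun overlaps the antisense gene Junos, whose reads cannot be told apart from those of Jun here.

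Junb, a Jun protein that can hold back Jun activity, lies on chromosome 8 at 84974484-84978718 (minus strand) and overlaps Prdx2 on the opposite strand. It measured 4609 and 5388 CPM in SSC, 4141 and 4962 CPM in pBCSP, and 3979 and 6174 CPM in BCSP. Downstream it ran from 1212 through a median of 1634 to 3114 CPM, below every stem and progenitor library. The highest downstream libraries were 6C3 replicate 1 at 3114 CPM and PCP replicate 1 at 3050 CPM, while their partners stood at 1481 and 1847 CPM. On the log2 scale Junb differed by 1.40 (SE 0.17, 2.64-fold; adjusted p = 4.09e-06), and 14 of the 15 contrasts with a downstream population were called.

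Jund, the Jun protein usually found in resting cells, went the other way. It lies on chromosome 8 at 70698949-70700616 (plus strand), a single exon that overlaps the antisense gene Gm11175. Its level was 20.1 and 25.8 CPM in SSC, 19.3 and 13.3 CPM in pBCSP, and 57.0 and 28.2 CPM in BCSP. Downstream it was 66.8 and 123 CPM in PCP, 47.2 and 89.2 CPM in THY, 61.8 and 50.8 CPM in BLSP, 46.3 and 98.5 CPM in 6C3, and 61.4 and 55.5 CPM in HEC. Only BCSP replicate 1 reached into the downstream range. Jund gave a log2 difference of -1.45 (SE 0.22, a ratio of 0.366; adjusted p = 4.91e-05), and 11 of the 15 contrasts were called.

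Egr1, a zinc-finger factor induced by growth factors and load, lies on chromosome 18 at 34859823-34864984 (plus strand). It was measured at 4855 and 5218 CPM in SSC, 4472 and 4392 CPM in pBCSP, and 3655 and 3833 CPM in BCSP. Downstream values ran from 1330 through a median of 2291 to 3563 CPM, with the highest in PCP replicate 1, just under the lowest BCSP library. Egr1 gave a log2 difference of 0.93 (SE 0.13, 1.90-fold; adjusted p = 2.65e-05). Egr2, known from nerve myelination and osteoclast control, did not show this pattern, at 101 to 226 CPM against 120 to 323 CPM downstream (log2 difference -0.42, SE 0.18; adjusted p = 0.0687).

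Ier2, a small nuclear protein without a known DNA-binding domain, lies on chromosome 8 at 84661331-84662852 (minus strand). Its level was 3085 and 3321 CPM in SSC, 2669 and 3081 CPM in pBCSP, and 2574 and 3118 CPM in BCSP, with 719 to 2250 CPM and a median of 1192 downstream. The groups did not overlap, and the highest downstream libraries were again 6C3 replicate 1 at 2250 CPM and PCP replicate 1 at 2143 CPM. For Ier2 the log2 difference was 1.18 (SE 0.16, 2.27-fold; adjusted p = 1.13e-05). Atf3, a stress-induced repressor of the ATF family, was at 333 to 466 CPM against 169 to 526 CPM downstream (log2 difference 0.30, SE 0.17; adjusted p = 0.141).

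Within the 3 stem and progenitor populations none of the 10 genes differed in any of the 3 pairwise contrasts, where 0.955% of all gene tests of that kind were called. Between 2 downstream populations Jun was called in 2 of 10 contrasts and Fosl2 in 1, against 4.31% of all gene tests. Fos, Junb, Egr1 and Ier2 were the genes whose 6 stem and progenitor libraries all lay above the 10 downstream libraries, as did 7.89% of all tested genes, and none lay wholly below, as did 8.62%. Relative to summed exon length, the order in SSC, pBCSP and BCSP was Junb at 2119 CPM per kb, Fos at 2036, Ier2 at 1955, Egr1 at 982, Jun at 594, Atf3 at 182, Fosb at 120, Egr2 at 43.9, Jund at 16.4 and Fosl2 at 11.8. In the downstream populations Ier2 led at 885 CPM per kb, before Junb at 821, Egr1 at 521, Fos at 354 and Jun at 332. Fos thus passed from the second place to the fourth, and Jund, at 42.0 CPM per kb downstream, stayed far below Jun and Junb. Jun, Junb and Jund each overlap a gene on the opposite strand, in libraries that do not mark strand. The part of these overlaps in the counted levels was not tested.

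Other genes of the same response went in both directions. Of 36 other early response genes, 18 were higher and 6 lower in SSC, pBCSP and BCSP than downstream (median log2 difference 0.34), with Nr4a1, an orphan nuclear receptor, higher by 2.91 and Egr3 at -3.27. Of 18 other AP-1 and ATF family genes 5 were higher and 3 lower (median -0.03), led by Atf4, the effector of the integrated stress response, at 1.66, and by Batf2 at -3.41, a gene near 0 CPM in both groups. Of 17 signalling genes upstream of the early genes 3 were higher and 3 lower (median -0.22), among them the kinases Mapk8 at 1.18 and Mapk9 at -1.07. Of the Egr corepressors, Nab2 was higher by 0.90 and Nab1 was not called.

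Heat shock genes, which are known to respond to tissue dissociation along with immediate early genes, were called here mostly in the same direction. Of 14 such genes 11 were higher and 3 lower in SSC, pBCSP and BCSP (median log2 difference 1.21), with Hspa1a at 2.48 and Hsp90aa1 at 2.29. Their summed level was 7703 to 10015 CPM in the 6 WT stem and progenitor libraries and 2955 to 5379 CPM in the 10 downstream libraries. The 10 immediate early genes summed to 16831 to 23586 CPM and 6734 to 13239 CPM in the same libraries. Downstream, the order was not shared: PCP replicate 1 had the highest immediate early sum, 13239 CPM, and the lowest heat shock sum, 2955 CPM. Osteoblast and chondrocyte markers also differed between these groups, as given above. Summed erythroid markers (6 genes) were at 0.705 to 5.54 CPM in the WT stem and progenitor libraries and at 17.2 to 145 CPM downstream, without overlap. The part of dissociation, sorting, erythroid RNA and cell type in the differences was not tested.

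**Figure D2:**
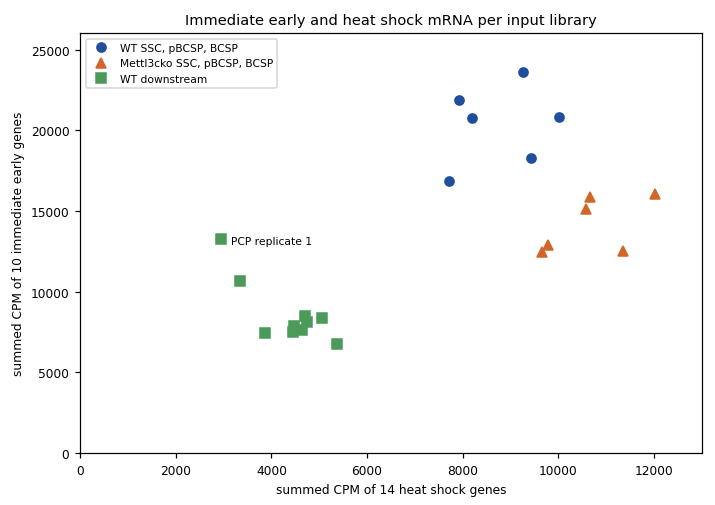
Summed CPM of the 10 immediate early genes against summed CPM of 14 heat shock genes, with 1 point per input library: WT SSC, pBCSP and BCSP (circles), the same populations labelled Mettl3cko (triangles) and WT downstream populations (squares). WT stem and progenitor libraries sit at 16831 CPM or more of immediate early mRNA, while libraries labelled Mettl3cko sit at 12442 to 16057 CPM although their heat shock sums, 9661 to 12031 CPM, reach higher.

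The genes most like Fos over the 16 WT input libraries, by Pearson correlation of log2 CPM among 8569 genes with a mean of at least 10 CPM, were Sf3b1 (0.986), Rsrp1 (0.977), Dnajb9 (0.976), Gltscr2 (0.975) and Rpain (0.975). None of the other immediate early genes was among the first 100, and the nearest was Egr1 at rank 201 (0.920). For Egr1 the order began with Gli2 (0.971), Adi1 (0.953), Bcl2 (0.945), A2m (0.943) and Per1 (0.937), and Fos and Jun were among the first 100. Within the 10 genes, the closest pair was Junb with Ier2 (0.978), and Fos with Jund gave -0.78. The 16 points come from 8 populations that share library preparation, and the split between stem and downstream populations enters every one of these values.

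The second comparison asks which transcripts the m6A antibody enriched. A transcript was taken as tagged, by the study's rule, at a log2 ratio of IP over input above 1 with an unadjusted p under 0.05. The ratio is relative to the bulk of transcripts in the libraries. Jund was tagged in 7 of the 8 WT populations and was the only one of the 10 genes tagged in any. The share of all tested genes that were tagged was 10.4% for SSC, 12% for pBCSP, 6.67% for BCSP, 10.6% for PCP, 12.4% for THY, 12.4% for BLSP, 14.5% for 6C3 and 13.5% for HEC.

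**Figure D3:**
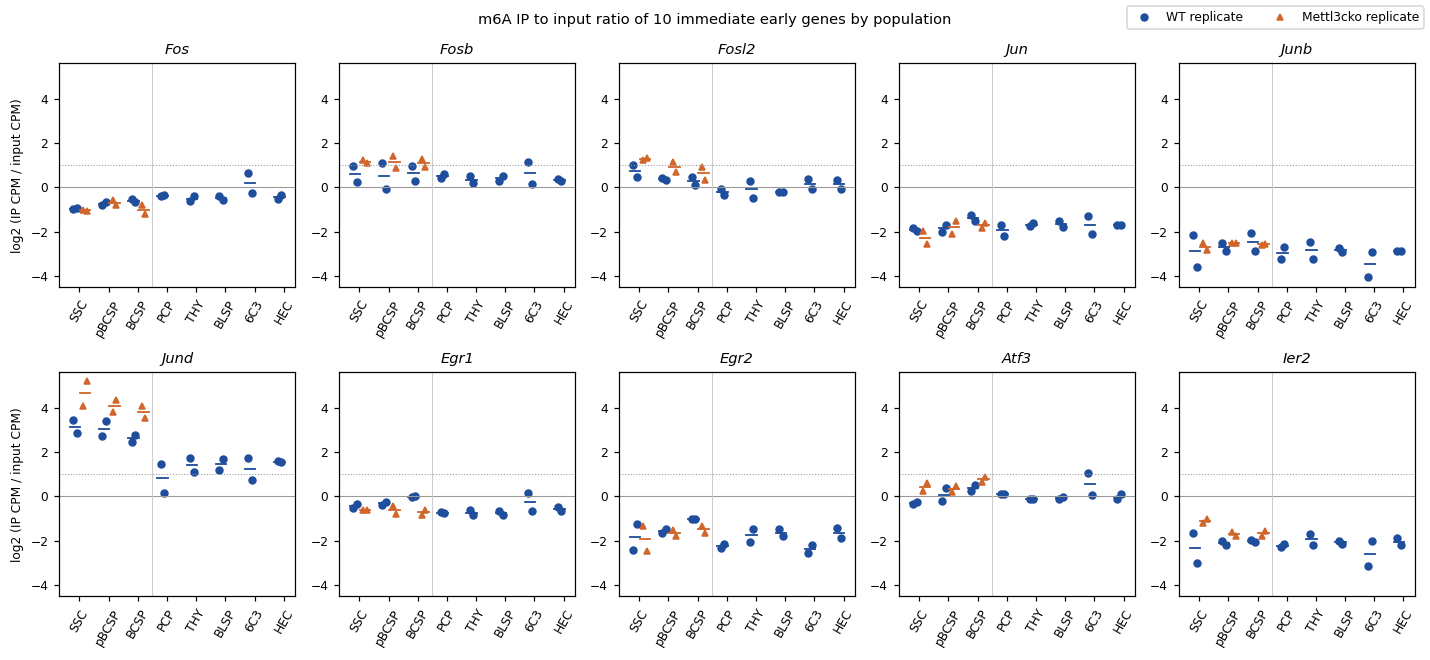
Log2 ratio of IP CPM to input CPM for each of the 10 genes and each replicate, by population, with WT as circles, libraries labelled Mettl3cko as triangles and the mean of each pair as a bar. The solid line marks a ratio of 0 and the dotted line a ratio of 1 on the log2 scale. Jund lies at 2.47 or more in all SSC, pBCSP and BCSP replicates, and Junb lies at -2.05 or less in all replicates.

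The log2 ratio of Jund was 3.46 and 2.84 in the SSC replicates, 2.71 and 3.38 in pBCSP, and 2.47 and 2.75 in BCSP. Downstream it was 1.48 and 0.14 in PCP, 1.73 and 1.11 in THY, 1.21 and 1.67 in BLSP, 1.75 and 0.74 in 6C3, and 1.58 and 1.54 in HEC. Every stem and progenitor replicate lay above every downstream replicate. By edgeR the enrichment was 9.02-fold in SSC (log2 3.17, SE 0.26; adjusted p = 0.0286), 8.14-fold in pBCSP (log2 3.03, SE 0.25; adjusted p = 0.00813) and 5.73-fold in BCSP (log2 2.52, SE 0.42; adjusted p = 0.0425). Downstream the log2 ratio ranged from 1.21 in 6C3 (SE 0.35; adjusted p = 0.0388) to 1.65 in HEC (SE 0.15; adjusted p = 0.000249). PCP gave 0.83 (SE 0.34; adjusted p = 0.159) and its replicates lay far apart. Single libraries decided these calls at the edge: without 6C3 input replicate 1 the log2 ratio there was 0.71, and without the IP or the input library of PCP replicate 2 Jund was tagged in PCP.

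At the other end, Jun, Junb and Ier2 were depleted in the IP, with a log2 ratio below -1 and an unadjusted p under 0.05 in all 8 populations. The share of all genes this far down was 13.9% for SSC, 14.8% for pBCSP, 11.7% for BCSP, 14.5% for PCP, 15% for THY, 14.8% for BLSP, 17% for 6C3 and 14.2% for HEC. Junb was lowest, from -3.53 in 6C3 to -2.54 in BCSP. Ier2 ran from -2.62 in 6C3 to -1.85 in THY. Without 6C3 input replicate 1 the 6C3 values were -2.93 for Junb and -2.10 for Ier2, which was then not the lowest, since PCP gave -2.19. Jun ran from -1.87 in SSC to -1.43 in BCSP. Egr2 was depleted by the same rule in 7 populations, with -2.33 in 6C3 at the lowest (-2.09 without the same input library, against -2.19 in PCP), and missed it in BCSP at -1.07. In the sequences above, 4 GGACT lie in the 3′UTR of Ier2, 1 in that of Junb and 3 in that of Jund.

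Whether the ratio differed between populations was tested as an interaction of assay and population over the 32 WT libraries. Jund was the only gene of the 10 called by the F test (adjusted p = 0.0247), where 0.485% of all 25365 genes were called. With DESeq2 size factors in place of TMM that call was lost, and 0 of the 10 genes were called. SSC, pBCSP and BCSP against the downstream populations gave the same single call, Jund at 1.70 on the log2 scale (SE 0.26; adjusted p = 0.000164), where 4.84% of all genes were called, 3.06% higher and 1.77% lower. Its replicates did not overlap between the groups, as was true of 0.978% of all genes with higher values in SSC, pBCSP and BCSP. Mitochondrial transcripts took 1.56% to 2.92% of the counts of the WT SSC, pBCSP and BCSP IP libraries and 4.53% to 9.10% of the downstream IP libraries, and their part in the ratio difference was not tested. The IP level of Jund itself was 130 to 319 CPM in these populations and 134 to 190 CPM downstream, so the IP levels overlapped while the input levels differed. The input count is the denominator of the ratio, and the ratio difference is therefore not independent of the mRNA difference given above.

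The other 9 genes were not called in that test. Fosl2 gave 0.53 (SE 0.23; adjusted p = 0.22), Egr1 gave 0.42 (SE 0.18; adjusted p = 0.21), Fos gave -0.39 (SE 0.20; adjusted p = 0.365), Egr2 gave 0.54 (SE 0.28) and Junb gave 0.43 (SE 0.24). Of the 36 other early response genes 8 had a higher and 1 a lower ratio in SSC, pBCSP and BCSP (median 0.35, against -0.08 over all genes), as did 3 and 1 of the 17 signalling genes, while 1 of 18 AP-1 and ATF genes, 1 of 14 heat shock genes and neither Egr corepressor had a higher ratio. IP and input of a replicate came from one batch of sorted cells, and with the replicate as a block Fos at -0.41 (adjusted p = 0.0207), Fosl2 at 0.55 (adjusted p = 0.0176) and Egr1 at 0.40 (adjusted p = 0.0179) were called beside Jund at 1.68. Across all 8 populations the block added Fos to Jund as called. With the block, 1761 of all genes were called between the groups in place of 1227, and 923 across the populations in place of 123.

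The third comparison sets libraries labelled Mettl3cko against WT in SSC, pBCSP and BCSP. In each population alone, with 2 against 2 libraries, edgeR called 0% of all genes at an adjusted p under 0.05, and so none of the 10. By the study's rule (log2 difference beyond 0.5, unadjusted p under 0.05), 3 of the 10 were lower in SSC, 1 in pBCSP and 7 in BCSP, and none was higher. The share of all genes lower by this rule was 7.07%, 4.48% and 5.72%, and the share higher was 6.96%, 3.88% and 7.22%. DESeq2 called 3 of the 10 at an adjusted p under 0.05 in SSC (Fos, Egr1 and Atf3), 0 in pBCSP and 5 in BCSP (Fos, Fosb, Jund, Atf3 and Ier2). It also called many genes outside the 10 in each population, as counted at the end of the report. There edgeR called none of the 16100, 16017 and 16322 genes it tested in SSC, pBCSP and BCSP. The share of all genes that DESeq2 called is not given.

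In SSC, pBCSP and BCSP, in that order, Fos gave log2 differences of -0.95, -0.81 and -0.86, and Atf3 gave -0.91, -0.81 and -0.90. Egr1 gave -0.73, -0.59 and -0.58, Ier2 gave -0.41, -0.43 and -0.72, and Jun gave -0.42, -0.41 and -0.61. Jund was at -0.40, 0.02 and -1.31. A test of whether the difference itself varied between the populations called 0% of all genes and none of the 10 (edgeR; 4.5% of all genes and 0 of the 10 at an unadjusted p under 0.05; DESeq2 called 0 of the 10).

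With the 3 populations in a single fit, in which genotype was tested after population, 6 of the 10 genes were lower in the libraries labelled Mettl3cko and none was higher. Among all 17487 tested genes 7.17% were called, 2.95% lower and 4.22% higher. The median log2 difference was -0.53 over the 10 genes and -0.03 over all genes. For Fos, Egr1, Atf3 and Ier2, all 6 libraries labelled Mettl3cko lay below the 6 WT libraries, as was true of 1.93% of all genes, and no gene of the 10 lay wholly above, as did 2.47%. The labels do not say whether the 3 populations of a replicate number came from the same animals. If they did, the 6 libraries of a genotype are not 6 independent samples. The same limit applies to the other fits over several populations.

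Fos stood at 2644 and 3151 CPM in SSC, 2039 and 2923 CPM in pBCSP and 2397 and 2511 CPM in BCSP labelled Mettl3cko. The highest of these was below the lowest WT library, 3814 CPM, and all were above the highest downstream library. The log2 difference was -0.87 (SE 0.12, a ratio of 0.548; adjusted p = 0.00127). Egr1 stood at 2287 to 3451 CPM, median 2818, against 3655 to 5218 CPM, median 4432, in WT (log2 difference -0.62, SE 0.10; adjusted p = 0.00367).

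Atf3 was at 190 and 277 CPM in SSC, 130 and 263 CPM in pBCSP, and 186 and 239 CPM in BCSP labelled Mettl3cko. The WT libraries of the same populations ran from 333 to 466 CPM, so the groups were apart, although Atf3 was not called between WT stem and downstream populations. The log2 difference was -0.87 (SE 0.16, a ratio of 0.548; adjusted p = 0.00618). Ier2 stood at 1712 to 2482 CPM against 2574 to 3321 CPM (log2 difference -0.51, SE 0.10; adjusted p = 0.00806).

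Jun was at 1032 to 1566 CPM against 1527 to 2124 CPM, overlapping through 1 library on each side (log2 difference -0.47, SE 0.10; adjusted p = 0.0158). Fosb was at 258 to 495 CPM against 444 to 1020 CPM (log2 difference -0.85, SE 0.22; adjusted p = 0.0318). Leaving out any of 7 of the 12 libraries ended the call of Fosb, with adjusted p from 0.0526 to 0.105: either SSC library labelled Mettl3cko, replicate 1 of pBCSP or of BCSP labelled Mettl3cko, or WT replicate 2 of SSC, pBCSP or BCSP.

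The remaining 4 genes were not called. Junb, at 3528 to 5056 CPM against 3979 to 6174 CPM, gave -0.18 (SE 0.13; adjusted p = 0.454) and Fosl2 gave -0.22 (SE 0.19; adjusted p = 0.56). Jund gave -0.55 (SE 0.28; adjusted p = 0.265), and Egr2 was the only gene of the 10 with a positive difference, 0.39 (SE 0.17; adjusted p = 0.21).

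**Figure D4:**
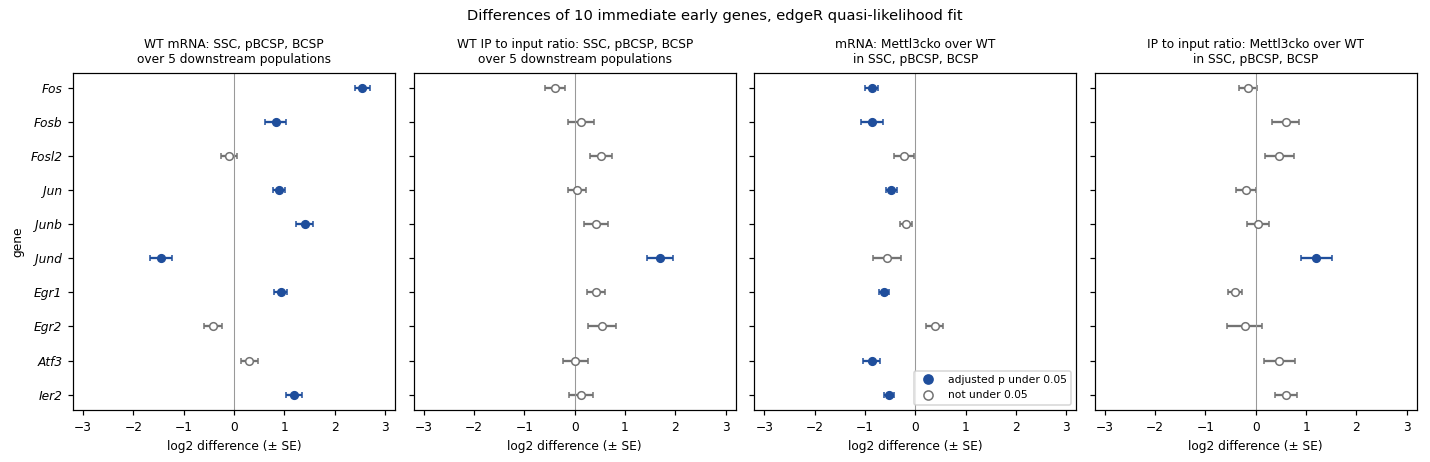
Log2 differences with SE (edgeR) of the 10 genes in 4 contrasts: WT mRNA and WT IP to input ratio of SSC, pBCSP and BCSP over the downstream populations, and mRNA and IP to input ratio of libraries labelled Mettl3cko over WT. Filled points passed an adjusted p of 0.05. Jund at -1.45 is the only filled point below 0 in the first panel, and the 6 filled points of the third panel lie between -0.87 and -0.47.

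Both contrasts in mRNA share the 6 WT libraries of SSC, pBCSP and BCSP. Side by side, Fos was called in both, 5.84-fold higher than downstream and at a ratio of 0.548 when labelled Mettl3cko. Junb was called against downstream, at 2.64-fold, and not for Mettl3cko, where its ratio was 0.881. Atf3 was called for Mettl3cko, at a ratio of 0.548, and not against downstream, where the fold was 1.23.

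Of 14 heat shock genes 2 rose (Hspa5, the chaperone of the endoplasmic reticulum, by 0.64 on the log2 scale and Hspd1 by 0.47) and none fell, with a median of 0.12, and their sum was 9661 to 12031 CPM against 7703 to 10015 CPM in WT. Of 36 other early response genes 4 rose and 4 fell (median -0.12), with Ctgf, a matricellular growth factor, at -1.97 and Arc at 1.45. Of 17 other AP-1 and ATF family genes tested 2 rose, Batf by 1.01 and Fosl1 by 0.56. Both Egr corepressors rose, Nab1 by 0.82 and Nab2 by 0.69, and of 17 signalling genes Elk3, a ternary complex factor, was called at -0.59. Erythroid markers (6 genes) summed to 0.705 to 5.54 CPM in WT and to 9.72 to 50.4 CPM in the libraries labelled Mettl3cko, and their part in the differences was not tested.

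In the IP to input ratio, none of the 10 genes was called in SSC, pBCSP or BCSP alone, where edgeR called 0% of all genes and DESeq2 called 0 of the 10. At an unadjusted p under 0.05, Jund was higher in SSC and in pBCSP and Egr1 was lower in BCSP. The share of all genes higher at that level was 3.26%, 2.06% and 2.49% in the 3 populations and the share lower was 11.3%, 9.87% and 7.82%. The log2 ratio of Jund in the libraries labelled Mettl3cko was 4.08 and 5.20 for SSC, 3.79 and 4.33 for pBCSP, and 4.09 and 3.54 for BCSP. Each of these 6 values lay above each of the 6 WT values, and the share of all genes that did so was not computed. The differences were 1.41 in SSC (SE 0.58; adjusted p = 0.328), 0.97 in pBCSP (SE 0.39; adjusted p = 0.385) and 1.25 in BCSP (SE 0.55; adjusted p = 0.492).

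A single fit over the 24 libraries of the 3 populations, added after these values were seen, called Jund alone, higher by 1.21 on the log2 scale (SE 0.30, 2.31-fold; adjusted p = 0.0378). Among all 18972 genes 2.58% were called, 0.643% higher and 1.94% lower, and the median of all genes was -0.36. The call of Jund was lost when any of 8 of the 12 replicates was left out, with adjusted p from 0.0579 to 0.136 and a log2 difference of 1.10 or more throughout. Those replicates were both of WT SSC, both of WT pBCSP, replicate 1 of WT BCSP, and of the libraries labelled Mettl3cko replicate 2 of SSC, replicate 2 of pBCSP and replicate 1 of BCSP. Input Jund was 10.6 to 24.6 CPM in the libraries labelled Mettl3cko and 13.3 to 57.0 CPM in WT. The IP level of Jund was 423 and 390 CPM in SSC labelled Mettl3cko, against 228 and 185 CPM in WT. In pBCSP it was 246 and 309 CPM against 130 and 140 CPM. In BCSP it was 240 and 241 CPM against 319 and 191 CPM. How the IP and input sides share in the ratio difference was not tested. Ier2 gave 0.60 (SE 0.21; adjusted p = 0.139), Fosb gave 0.59 (SE 0.27; adjusted p = 0.253) and Egr1 gave -0.42 (SE 0.14; adjusted p = 0.106). With the replicate as a block, Jund gave 1.23 (adjusted p = 0.0394) and 188 of all genes were called in place of 490.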

How the data were processed

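Input mRNA and m6A immunoprecipitated (IP) RNA of FACS-sorted mouse skeletal populations were measured in 44 libraries, 2 replicates of each of 22 conditions. Per the study's methods and the submitters' processing notes, the authors trimmed reads with fastp 0.20.1, aligned them to GRCm38 with HISAT2 2.2.1 and counted them per gene with featureCounts 2.0.1, and the deposited values are whole-number counts without normalization. A pair of further deposited tables from the authors hold their own log2 fold changes and p-values and were not used. The Smart-seq2-based libraries do not mark strand.

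Of 46959 entries, 128 share date names and were left out (0.390% or less of any library's counts). Counts were tested in R 4.3.3 with edgeR 4.0.16 (TMM, filterByExpr, quasi-likelihood F test), with Benjamini-Hochberg adjustment over all genes of a fit and calls at an adjusted p under 0.05. Standard errors are the absolute log2 difference divided by the square root of F. CPM are TMM-scaled, over the 22 input libraries for mRNA levels and over all 44 for ratios. Alternatives were DESeq2 1.42.0, its size factors, library size alone, no filter, a replicate block, each library left out, and limma 3.58.1 on population means. The fits were tested on simulated counts with 200 changed genes. Figures used matplotlib 3.10.9 in Python 3.11.15.

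Groups were taken from the labels. Replicate numbers pair IP with input, since each batch of sorted cells was split between them; the correlation of their deviations was 0.0179 to 0.239 in the 8 WT populations, over 0.1 in 4 of them, and 0.0403 to 0.0463 in the 3 labelled Mettl3cko. The study describes its replicates as biologically independent experiments, while the labels do not say which animals each came from, so p-values measure the spread between these samples. All 10 genes are named by rule; of the gene lists, values are given for the pair with the largest mRNA difference past the test. The genes and the lists were chosen with earlier results of these data known. Input libraries held 19795666 to 44046651 counts; Jund rested on 10.6 to 123 CPM and the other 9 genes on at least 64.7 CPM.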

Additional observations from a re-analysis of the deposited data

Results flagged for a closer look

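The IP to input ratio of Jund was singled out because it differed between the 8 WT populations by a test of the difference itself, the interaction of assay and population (edgeR, adjusted p = 0.0247). It was the only one of the 10 genes to do so in this fit without pairing, and the call was lost with DESeq2 size factors. With the replicate as a block, which pairs IP with input, Fos was called beside Jund, and more of all genes were called. Mitochondrial transcripts took 1.56% to 2.92% of the IP counts in WT SSC, pBCSP and BCSP and 4.53% to 9.10% downstream. The mean log2 ratio was highest in SSC and lowest in PCP, where the replicates gave 1.48 and 0.14. Input Jund levels differed between the same populations (edgeR, adjusted p = 0.00199), and how much of the ratio difference comes from the input side was not tested. The part of the overlap with the antisense gene Gm11175 was not tested either.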

How the results depend on the processing

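The 7 calls of stem and progenitor against downstream mRNA held under every alternative run, as did those of Fos, Jun, Egr1, Atf3 and Ier2 in labelled Mettl3cko over the 3 populations and that of Jund in the stem against downstream ratio. Without a filter on low counts, 10 members in place of 6 differed across the 8 WT populations in mRNA, 2 in place of 1 in the ratio across populations, and 2 in place of 1 in the stem against downstream ratio. DESeq2 size factors left 0 in the ratio across populations. For labelled Mettl3cko mRNA, where edgeR called 0, DESeq2 called 3 members in SSC and 5 in BCSP, and the fit without a filter called 4 in each. In the ratio over the 3 populations, DESeq2 called 2 and the fit without a filter 3, in place of 1. DESeq2 and the fit without a filter also called more of all genes wherever their counts are given at the end of this section. For mRNA across populations that count is not given. The cause of these changes in the calls was not tested.

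Replicate numbers pair IP with input by design. With the replicate block, 2 members were called in the ratio across populations and 4 in the stem against downstream ratio. Between WT and labelled Mettl3cko, and between populations, the labels tie samples by number alone. Same-number deviations correlated at -0.00264 to 0.00596 between genotypes and at -0.188 to 0.118 between WT input populations. Most of the 10 genes were nevertheless higher in replicate 2 of each stem and progenitor population. Their number was 8 for WT SSC, 7 for pBCSP and 9 for BCSP. With the Mettl3cko label it was 7, 9 and 8. Downstream it ranged between 1 (PCP) and 9 (BLSP). Whether samples of the same number share animals or handling was not tested. For labelled Mettl3cko against WT, the block moved SSC mRNA from 0 to 2 members and from 0 to 288 genes. It moved BCSP mRNA from 0 to 46 genes and the difference between populations from 0 to 2 genes. It ended no call of a member.

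With each library or replicate left out, 6 to 8 members were called for mRNA across populations, with 6951 to 8535 of all genes. Stem against downstream gave 7 to 9 (9458 to 10196 genes) and the WT ratio tests 1 each (120 to 531 and 851 to 1622). Over the 3 populations, labelled Mettl3cko mRNA gave 5 to 6 (672 to 1314 genes) and the difference between them 0 (0 to 18). The Mettl3cko ratio gave 0 to 1 (138 to 570). Fits of a single population then hold 1 sample in a group, so log2 values are given. In Mettl3cko mRNA, Fos ran from -1.08 to -0.82 in SSC and -1.10 to -0.59 in pBCSP. Atf3 ran from -1.21 to -0.66 and -1.41 to -0.40. The SSC ratio difference of Jund ran from 1.00 to 2.10. Jund tagging in 6C3 was lost without input replicate 1, at a log2 ratio of 0.71. Fosb in Mettl3cko mRNA over the 3 populations lost its call in 7 of these fits (edgeR, adjusted p 0.0526 to 0.105) and Jund in the Mettl3cko ratio in 8 (0.0579 to 0.136).

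Signs turned only for differences that were not called. Fosl2 mRNA, stem against downstream, was 0.031 on the log2 scale without PCP and -0.25 to 0.013 with a library left out. In the stem against downstream ratio, DESeq2, its size factors and no filter gave -0.035, -0.035 and -0.0038 for Fosb, -0.11, -0.11 and -0.087 for Jun, -0.15, -0.15 and -0.12 for Atf3, and -0.027, -0.027 and -0.00031 for Ier2. Library size alone gave -0.0051 and the replicate block -0.0089 for Atf3. These scalings also moved the median of all genes, from -0.08 to -0.26, -0.24 and -0.28. With a replicate left out, Fosb ran from -0.16 to 0.35, Jun from -0.080 to 0.15, Atf3 from -0.14 to 0.13 and Ier2 from -0.12 to 0.33. Junb in the Mettl3cko ratio over the 3 populations was -0.014 with library size alone and -0.11 to 0.26 with a replicate left out. Jund in Mettl3cko mRNA ran from -1.12 to 0.089 in SSC and -0.24 to 0.30 in pBCSP.

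Counts over all genes moved more. The ratio across populations gave 123 genes, against 999 with DESeq2, 866 without a filter and 923 with the block, and the stem against downstream ratio gave 1227 against 1951 with DESeq2. For Mettl3cko mRNA, 0 genes in SSC, pBCSP and BCSP became 661, 158 and 548 with DESeq2 and 793, 245 and 540 without a filter, and for the ratio 0 became 1759, 999 and 728 with DESeq2 and 90, 476 and 129 without a filter. Over the 3 populations, 1253 genes in mRNA became 2300 and 1973, the 0 for the difference became 41 and 80, and 490 in the ratio became 1801 and 997, or 188 with the block. A single population's IP against input fit keeps no residual degrees of freedom once a whole replicate is left out, so single libraries were left out, and the lone sample was taken to vary like the other group. That choice, the fits without PCP and the single fit of the Mettl3cko ratio were added after the data were seen.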
